A study of Mus musculus with 5 samples.

Results

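Itih5 and Rasl11a fibroblasts of the mouse colon are described here, a set of 310 cells out of 4436 fibroblasts and 7935 deposited cell barcodes. A barcode was a fibroblast if it had at least 300 genes, at most 10% mitochondrial counts and a transcript of at least 2 of 6 genes that most fibroblasts share (Col1a2, Col3a1, Col6a1, Col6a2, Mmp2 and Dcn). From these, the rule took cells with a transcript of Adamdec1 and of at least 2 of 4 set genes (Saa3, Niacr1, Rasl11a and Itih5), with fewer than 3 of F3, Plau, Slco4a1, Mmp10, Col6a4 and Ednrb and fewer than 2 of Rbp4, Aldh1a1, Tmem158, Enho and Bean1. They were set against 1993 Adamdec1 fibroblasts, which met the same limits but had at most 1 set gene, and against 156 F3 and Plau fibroblasts. The latter had at least 3 genes of the list that starts with F3 and fewer than 2 of the list that starts with Rbp4. Neither Adamdec1 nor the set genes were asked of them, and 145 of the 156 had Adamdec1. All groups came from the same 5 collections of Drop-seq, a droplet method that tags each captured polyadenylated RNA with a unique molecular identifier (UMI). The colon mesenchyme came from C57/BL6 mice aged 10 weeks that had received no treatment, and the epithelium was removed with EDTA and DTT before Collagenase XI and Dispase released the cells. The first biological replicate gave collections 1A and 1B, and the second gave 2A, 2B and 2C. The number and sex of the animals behind a replicate are not in the labels. The p-values measure how far differences between fibroblast groups varied between these 2 replicates, and not the spread between single animals.

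The connective tissue of the colon holds several kinds of fibroblast, which differ in the signals they send to the epithelium and to immune cells and in the matrix they lay down. Adamdec1 encodes a secreted metalloprotease-like protein that is known from fibroblasts and macrophages of the intestinal lamina propria. Fibroblasts that meet cytokines such as interleukin 1 or oncostatin M are known to make chemokines, serum amyloid A and prostaglandin E2, the last through the cyclooxygenase encoded by Ptgs2. Of the 4 set genes, Saa3 encodes a serum amyloid A protein, Niacr1 (now Hcar2) a receptor for butyrate, niacin and ketone bodies, Rasl11a a small Ras-like GTPase and Itih5 a hyaluronan-binding protein of the matrix.

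On GRCm38 the annotation GENCODE M21 places Itih5 at chr2:10153571-10256529 on the plus strand and Rasl11a at chr5:146845071-146847726 on the plus strand. Niacr1 lies at chr5:123863570-123865499 and Saa3 at chr7:46711998-46715700, both on the minus strand, and Adamdec1 lies at chr14:68563380-68582095 on the minus strand. The 300 bases around the RefSeq start sites (250 before and 50 after, GRCm38.p6) of the set genes that had an entry are shown so that a reader can see the sequence in front of the genes that define the cells. That of Ptgs2 is added because it had the smallest adjusted p among the genes higher in the Itih5 and Rasl11a fibroblasts than in the Adamdec1 fibroblasts, a choice made after its values were seen. Lyz1, the named gene with the largest positive fold in that comparison, has none printed because 118 of its 144 UMIs in these cells came from 1 cell (log2 fold change 3.15 with all collections, 0.41 without 2A). Capitals mark matches on either strand to TTGCNNAA (a C/EBP-like sequence), TTCNNNGAA (STAT-like) or TTTCNN followed by TTTC (interferon regulatory factor-like).
Itih5, no match, chr2:10153293-10153592, plus strand: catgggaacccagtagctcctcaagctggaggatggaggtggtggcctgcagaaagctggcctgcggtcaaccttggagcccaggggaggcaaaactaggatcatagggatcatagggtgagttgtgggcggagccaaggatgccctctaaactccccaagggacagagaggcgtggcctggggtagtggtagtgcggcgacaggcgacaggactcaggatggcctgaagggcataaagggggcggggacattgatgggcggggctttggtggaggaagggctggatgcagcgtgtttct
Rasl11a, a C/EBP-like match from base -151 and a STAT-like match from base -22, chr5:146844821-146845120, plus strand: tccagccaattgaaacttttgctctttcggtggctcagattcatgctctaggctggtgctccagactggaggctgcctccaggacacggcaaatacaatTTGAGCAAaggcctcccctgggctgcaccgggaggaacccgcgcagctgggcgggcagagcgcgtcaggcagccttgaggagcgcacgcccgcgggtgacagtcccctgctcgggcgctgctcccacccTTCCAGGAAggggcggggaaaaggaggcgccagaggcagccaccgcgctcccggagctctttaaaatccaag
Saa3, an interferon regulatory factor-like match from base -125 and a C/EBP-like match from base -99, chr7:46715627-46715926, minus strand: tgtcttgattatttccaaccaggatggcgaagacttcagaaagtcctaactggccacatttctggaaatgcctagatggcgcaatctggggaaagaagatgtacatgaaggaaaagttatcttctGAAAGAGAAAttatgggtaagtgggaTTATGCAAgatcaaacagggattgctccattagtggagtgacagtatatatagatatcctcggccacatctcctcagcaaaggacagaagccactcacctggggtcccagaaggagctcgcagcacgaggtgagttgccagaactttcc
Ptgs2, a C/EBP-like match from base -69, chr1:150099781-150100080, plus strand: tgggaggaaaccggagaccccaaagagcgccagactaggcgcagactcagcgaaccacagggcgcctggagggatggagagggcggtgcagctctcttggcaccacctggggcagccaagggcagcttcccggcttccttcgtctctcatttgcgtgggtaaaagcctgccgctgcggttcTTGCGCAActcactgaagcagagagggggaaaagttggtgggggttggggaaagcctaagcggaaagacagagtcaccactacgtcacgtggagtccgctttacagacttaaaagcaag
Positions count from the start site, on the strand of the gene. The C/EBP-like sequence stood in 10.8% of all 32851 promoters of this length, the STAT-like sequence in 8.30% and the interferon regulatory factor-like sequence in 3.44%. Matches to GGGNN followed by TTTCC (kappaB-like, 1.63% of all promoters), TGANTCA (AP-1-like, 7.81%) and TATAAA (13.6%) were searched in the same way, and none lay in these 4 promoters. The matches are descriptions of letters and not sites that were shown to be bound.

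These cells were proposed under a name after Saa3, Niacr1 and inflammation, but most had no Saa3 UMI and most no Niacr1 UMI. The genes of the rule do not decide the inflammation part of that name, and cytokine response genes are given below. Only 23 of the 310 cells (7.42%) had a Saa3 UMI, 140 (45.2%) a Niacr1 UMI, 241 (77.7%) a Rasl11a UMI and 273 (88.1%) an Itih5 UMI. The most common combination was Rasl11a with Itih5 and neither of the other two, in 159 cells. Niacr1 with Itih5 followed with 55 cells, all of Niacr1, Rasl11a and Itih5 with 43 and Niacr1 with Rasl11a with 30. The 7 combinations that included Saa3 made up the remaining 23 cells. Exactly 2 set genes were found in 254 cells, 3 in 55 and all 4 in 1. The cells are therefore named here after Itih5 and Rasl11a, the 2 set genes found in most of them, although only 206 of the 310 had both. Neither gene was limited to them: of the Adamdec1 fibroblasts, which had at most 1 set gene, 28.4% had Itih5 and 12.1% Rasl11a. Niacr1 was found in 4.42% and Saa3 in 0.351% of the Adamdec1 fibroblasts. The members were chosen by these UMIs, so the values describe the rule and carry no test.

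**Figure D1:**
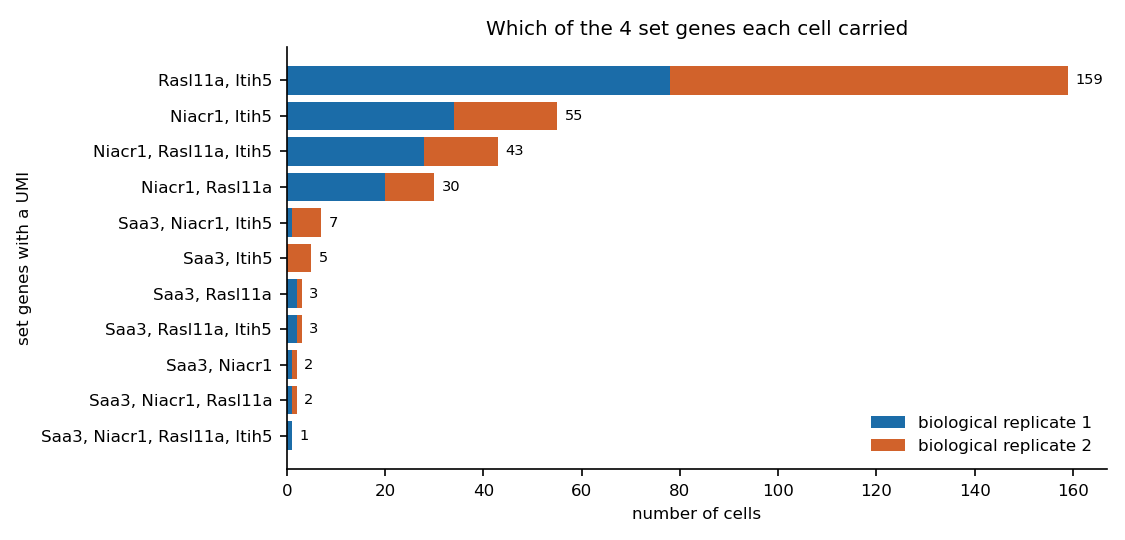
Number of Itih5 and Rasl11a fibroblasts (x axis) by the set genes of which the cell had a UMI (y axis), with biological replicate 1 in blue and biological replicate 2 in orange. The bar of Rasl11a with Itih5 holds 159 of 310 cells, and the combinations with Saa3 hold 1 to 7 cells each.

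Their share of fibroblasts was 6.99% (exact binomial 95% interval 6.26 to 7.78%, which covers counting error only). It was 7.93% (168 of 2120) in biological replicate 1 and 6.13% (142 of 2316) in biological replicate 2. Collections 1A, 1B, 2A, 2B and 2C held 100, 68, 54, 44 and 44 of the cells, or 8.68, 7.03, 6.35, 6.45 and 5.61% of their fibroblasts. Depth differed between the groups: the Itih5 and Rasl11a fibroblasts had a median of 1853.5 UMIs per cell, against 1268 in Adamdec1 fibroblasts and 1925 in F3 and Plau fibroblasts. In the 4104 retained cells that had at least 1000 UMIs, 283 of 3196 fibroblasts (8.86%) met the rule before thinning, and 153 of 2696 (5.68%) met it once each cell was thinned to 1000 UMIs.

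Levels are given as CPM, the usual scale on which the UMIs of all genes of a group sum to the same fixed total, as the mean ± SD of the 2 biological replicates. Itih5 was at 826 ± 34.7 CPM in Itih5 and Rasl11a fibroblasts, 294 ± 5.61 in Adamdec1 fibroblasts and 81.0 ± 32.3 in F3 and Plau fibroblasts. Rasl11a was at 916 ± 2.43 CPM in Itih5 and Rasl11a fibroblasts, against 112 ± 10.2 in Adamdec1 fibroblasts and 167 ± 65.1 in F3 and Plau fibroblasts. Niacr1 was at 348 ± 64.8 CPM in Itih5 and Rasl11a fibroblasts, 34.5 ± 4.29 in Adamdec1 fibroblasts and 179 ± 106 in F3 and Plau fibroblasts. Saa3 varied most among collections of the Itih5 and Rasl11a fibroblasts, with 155, 201, 964, 298 and 72.8 CPM in 1A, 1B, 2A, 2B and 2C, against 1.19 to 2.91 CPM in the Adamdec1 fibroblasts. Few cells carried it: the 5 cells with the most Saa3 held 64.2% of its 229 UMIs, and the highest, in 2A, held 44. In F3 and Plau fibroblasts Saa3 was at 570 CPM in 2C, at 12.1 in 1B and at 0 in the other 3 collections, and 1 cell held 21 of its 24 UMIs. The shared fibroblast genes were also higher in Itih5 and Rasl11a fibroblasts than in Adamdec1 fibroblasts. Col3a1 was at 8072 against 5290 CPM, Col1a2 at 5349 against 4153 and Dcn at 7215 against 6490. Mmp2 was at 577 against 408 CPM, Col6a1 at 572 against 476 and Col6a2 at 607 against 470. The part of this difference in the higher calls below was not tested. Adamdec1 was at 4642 ± 370 CPM in Itih5 and Rasl11a fibroblasts, 3087 ± 371 in Adamdec1 fibroblasts and 2770 ± 326 in F3 and Plau fibroblasts.

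**Figure D2:**
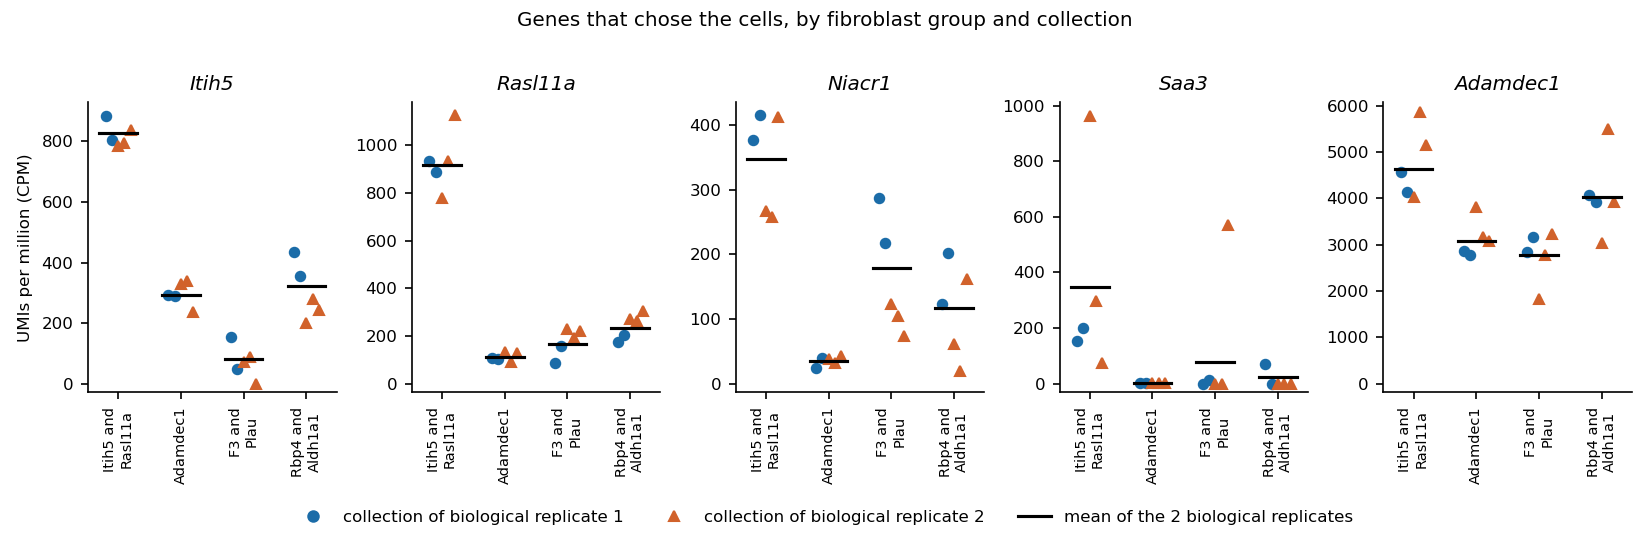
CPM of the 4 set genes and Adamdec1 (y axes, 1 panel a gene) in 4 fibroblast groups (x axis), with a point for each collection, coloured by biological replicate, and a line at the mean of the 2 biological replicates. Itih5 and Rasl11a lie above the other groups in every collection because the rule asked for them, while Saa3 spreads from 72.8 to 964 CPM in the chosen cells.

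The set genes were not limited to fibroblasts. Outside the fibroblast gate, cells with at least 3 markers of smooth muscle had Rasl11a at 923 CPM (50% of 56 cells, median 969.5 UMIs), and such glial cells had Itih5 at 574 CPM (48.6% of 35 cells, median 1531 UMIs). Macrophages had Niacr1 at 91.1 CPM (9.27% of 248 cells, median 1300 UMIs) and no Saa3 UMI. Adamdec1 was found in 11.7 to 20% of the cells of each of 8 other types, at 97 to 133 CPM outside smooth muscle and 400.5 CPM in it. Among all 2303 cells that passed the Adamdec1 gate, Itih5 was found in 42.7% of cells with Rasl11a and 34.8% of cells without it. Of these cells, 1621 had at least 1000 UMIs. Thinned to 1000 UMIs, they gave 37.9% and 28.0% in the same order, with the gate read before thinning. For Niacr1 the thinned shares with Itih5 were nearly equal, 30.3% of cells with Niacr1 and 29.6% of cells without it. The thinned shares with Rasl11a differed, 22.95% of cells with Niacr1 and 15.74% of cells without it. Saa3 cells were too few to read: 4 of 17 had Niacr1 at 1000 UMIs, against 118 of 1604 without Saa3.

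When cells were placed by all variable genes other than the gate genes, 32.2% of the 15 nearest neighbours of an Itih5 and Rasl11a fibroblast were of the same group, which held 11.3% of the cells. The same measure was 52.3% for F3 and Plau fibroblasts, which held 5.68% of the cells. The Itih5 and Rasl11a fibroblasts fell mainly into 3 of 12 clusters, with 35.5, 25.2 and 24.8% of the cells, while 86.5% of the F3 and Plau fibroblasts were in 1 cluster. The cluster with 35.5% was also the one that held most F3 and Plau fibroblasts. Without cells with 2 markers of another cell type, 26.9% of the neighbours were of the same group, which then held 11.4% of the cells. In that run 54.1% of the Itih5 and Rasl11a fibroblasts and 94.5% of the F3 and Plau fibroblasts lay in the same cluster. These shares describe the cells and have no test.

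Depth and other cell types limit what follows. The collections held 1636550 to 3345732 UMIs, and 10 barcode sequences occurred in more than 1 collection, none of them among the 310 cells. At least 2 markers of 1 other cell type were found in 33.2% of the Itih5 and Rasl11a fibroblasts, 33.5% of the Adamdec1 fibroblasts and 30.1% of the F3 and Plau fibroblasts. Lymphatic endothelial markers summed to 341 to 474 CPM over the collections in Itih5 and Rasl11a fibroblasts, against 810 to 1155 CPM in Adamdec1 fibroblasts. Markers of B and plasma cells summed to 44.5 to 400 CPM and 304 to 1372 CPM in the same groups. Macrophage markers (10 genes, none at 0) summed to 48.3 to 2928 CPM in Itih5 and Rasl11a fibroblasts and to 503 to 1273 CPM in Adamdec1 fibroblasts, and 356 of the 613 macrophage marker UMIs in the first group were in 1 cell of 2A. In F3 and Plau fibroblasts they summed to 33.2 to 123 CPM, with Mrc1 and Emr1 at 0. Immediate-early and heat-shock genes took 3.67 ± 0.0429% of the UMIs of Itih5 and Rasl11a fibroblasts, 3.20 ± 0.0890% of Adamdec1 fibroblasts and 3.28 ± 0.264% of F3 and Plau fibroblasts.

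Against the Adamdec1 fibroblasts, the Itih5 and Rasl11a fibroblasts had more RNA of single genes of several lists, among them the prostaglandin enzymes Ptgs2, Ptgs1 and Ptges, the cytokine response genes Socs3, Socs1 and Irf1, and the epidermal growth factor (EGF) family ligands Ereg and Nrg1, while most members of each list did not pass. Ptgs2, the inducible cyclooxygenase, was at 797 ± 135 CPM in Itih5 and Rasl11a fibroblasts and 292 ± 13.0 CPM in Adamdec1 fibroblasts. Of 5700 genes tested without the 22 gate genes, 144 (2.53%) were higher and 48 (0.842%) lower at an adjusted p below 0.05 (edgeR quasi-likelihood F test on UMI sums per biological replicate, two-sided, Benjamini-Hochberg over all genes tested). Together these were 3.37% of the genes tested. All adjusted p-values below come from this edgeR fit or, where cells or collections were left out, from the same fit on the rest. The median log2 fold change over all tested genes was 0.01.

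In the list of prostanoid genes, 4 of 13 tested members were higher, 2 were lower and 7 did not pass, with a median log2 fold change of 0.46. Ptgs2 had 957, 805, 586, 992 and 534 CPM in collections 1A, 1B, 2A, 2B and 2C of the Itih5 and Rasl11a fibroblasts, against 306, 296, 297, 252 and 295 CPM in the Adamdec1 fibroblasts. The lowest of the first 5 values was above the highest of the other 5, and the fitted log2 fold change was 1.57 ± 0.13 (SE, adjusted p = 2.5e-07). Ptges, which makes prostaglandin E2 from the product of the cyclooxygenases, was higher by 1.46 ± 0.23 (163 ± 4.20 against 64.8 ± 4.67 CPM). Ptgs1, the constitutive cyclooxygenase, was higher by 1.21 ± 0.22 (196 ± 2.87 against 92.8 ± 1.22 CPM), a call that ended without collection 2C (log2 fold change 1.01, adjusted p = 0.096). Pla2g4a, the phospholipase that frees arachidonic acid, was higher by 0.74 ± 0.19, but that call ended without any 1 of the 5 collections (0.61 to 0.71) and without cells with markers of another type (0.27). The 2 lower members were Hpgds, which makes prostaglandin D2 and is a gene of mast cells and macrophages, and Hpgd, which degrades prostaglandins. They are named after their values were seen.

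Of 8 tested acute phase genes 3 were higher and none lower (median 0.45), and 7 of 19 genes of the NF-kB and interleukin 1 response were higher and 1 lower (median 0.51). Socs3, a feedback inhibitor of cytokine receptors that STAT3 induces, had 1687, 1759, 1423, 1607 and 2172 CPM in the 5 collections of the Itih5 and Rasl11a fibroblasts, against 862, 986, 1047, 883 and 794 CPM in the Adamdec1 fibroblasts. Its groups did not overlap (log2 fold change 1.04 ± 0.12, adjusted p = 3.6e-05). Socs1, a related inhibitor of interferon signalling, was higher by 1.72 ± 0.25 (170 ± 49.4 against 56.5 ± 2.86 CPM). Cebpb, the transcription factor C/EBP beta, was higher by 0.94 ± 0.15 (1041 ± 67.7 against 592 ± 27.8 CPM), with an adjusted p of 0.054 without collection 2C. Nfkbia, which encodes the inhibitor of NF-kB that NF-kB itself induces, had 5081, 5732, 3529, 4047 and 3179 CPM in Itih5 and Rasl11a fibroblasts and 2964, 3116, 2400, 2563 and 2568 CPM in Adamdec1 fibroblasts, a log2 fold change of 0.82 ± 0.13. Icam1, an adhesion molecule for leukocytes, was higher by 0.95 ± 0.15 and the stress gene Ier3 by 0.93 ± 0.13. Irf1, a transcription factor of the interferon response, was higher by 1.14 ± 0.16 (773 ± 133 against 388 ± 73.7 CPM), and it was the only member called among 27 tested interferon genes. Osmr, the receptor of oncostatin M, was called at 0.87 ± 0.23, but the call ended without any 1 of the 5 collections (adjusted p 0.079 to 0.16).

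Of 15 tested chemokines, 4 were higher, 1 was lower and 10 did not pass (median 0.21). Cxcl1, which draws neutrophils, had 3945, 3395, 1520, 1766 and 2427 CPM in the collections of the Itih5 and Rasl11a fibroblasts, against 1098, 1028, 1576, 1238 and 1475 CPM in the Adamdec1 fibroblasts. The difference was larger in biological replicate 1 (3710 against 1066 CPM) than in biological replicate 2 (1832 against 1439 CPM), and in 2A the Itih5 and Rasl11a fibroblasts had the lower value. The log2 fold change was 1.23 ± 0.20 (adjusted p = 0.0007), and 1.07 with an adjusted p of 0.057 without 2C. Cxcl10, a chemokine for T cells, was higher by 1.09 ± 0.15 (715 ± 224 against 370 ± 119 CPM). Cxcl9, another interferon-induced chemokine, was called at 1.75 ± 0.39, although 36 of its 61 UMIs came from 1 cell of 2A that carried markers of another cell type, and the call ended without 1A or 2C (adjusted p 0.15 and 0.12). Ccl8 was called at 1.47 ± 0.32 and lost its call without 1A, 2B or 2C (1.32 to 1.56). Il6 had 116 ± 35.5 CPM in Itih5 and Rasl11a fibroblasts and 82.5 ± 9.66 CPM in Adamdec1 fibroblasts (log2 fold change 0.63 ± 0.30, adjusted p = 0.38). Ccl2, the main chemokine for monocytes, had 340 ± 170 and 213 ± 10.5 CPM in the same order (0.80 ± 0.30, adjusted p = 0.21).

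A few growth factors of the epithelial niche were higher. Ereg, which encodes epiregulin, had 696, 604, 267, 486 and 364 CPM in the collections of Itih5 and Rasl11a fibroblasts and 218, 176, 240, 224 and 272 CPM in those of Adamdec1 fibroblasts. Its lowest value, in 2A, was within the range of the Adamdec1 fibroblasts, and the log2 fold change was 1.30 ± 0.22 (adjusted p = 0.0011). Nrg1, which encodes neuregulin 1, had 164, 149, 96.4, 208 and 121 CPM against 59.3, 66.0, 52.6, 44.4 and 56.7 CPM, with no overlap (log2 fold change 1.5, SE 0.23, adjusted p = 0.00046). These were the 2 higher members among 5 tested EGF family genes. Among Wnt ligands, bone morphogenetic proteins (BMPs) and neurotrophic factors, 1 gene each was called higher: Wnt4 (1.49 ± 0.32), Bmp2 (0.75 ± 0.18) and Gdnf (1.20 ± 0.30). Each of these 3 lost its call without 1A, without 2B and without 2C, and in the cells without markers of another type (0.61, 0.33 and 1.01), and Bmp2 and Gdnf also without 1B. The BMP inhibitor Grem1 had 112 ± 2.54 CPM in Itih5 and Rasl11a fibroblasts and 184 ± 1.09 CPM in Adamdec1 fibroblasts (-0.58 ± 0.25, adjusted p = 0.32).

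Of 33 matrix genes tested, 7 were higher and 1 lower (median 0.29), and of 18 proteases and inhibitors 4 were higher and 1 lower (median 0.16). Ctsl, a lysosomal protease, had 2195, 1974, 1668, 2182 and 1941 CPM in the collections of the Itih5 and Rasl11a fibroblasts and 1180, 1091, 1403, 1310 and 1148 CPM in those of the Adamdec1 fibroblasts. The groups did not overlap (0.85 ± 0.13, adjusted p = 0.00031). Col6a5, a collagen VI chain, gave the second largest fold of the named higher genes, at low counts, 61.2 ± 15.4 against 7.40 ± 0.449 CPM (3.14 ± 0.51, adjusted p = 0.0007). Its 42 UMIs came from 28 of the 310 cells. Tenascin C (Tnc) was higher by 0.90 ± 0.15, periostin (Postn) by 0.79 ± 0.11 and Ecm1 by 0.97 ± 0.14. The calls of Postn and Ecm1 ended without 2C (0.57 and 0.79), and that of Tnc in the cells without markers of another type (0.41, adjusted p = 0.070). Agt, the angiotensin precursor, was higher by 1.31 ± 0.22. Has1, a hyaluronan synthase, was lower by 1.31 on the log2 scale (74.3 ± 14.9 against 204 ± 46.6 CPM, SE 0.25), a call that ended without 1B (adjusted p = 0.13). Rdh10, which makes retinaldehyde, was higher by 1.53 ± 0.19 (448 ± 64.3 against 169 ± 14 CPM), and Serpina3g, a serine protease inhibitor that interferon gamma induces, by 2.00 ± 0.30 (115 ± 68.9 against 30.3 ± 8.97 CPM). The Notch ligand Dll1 (1.70 ± 0.36) lost its call without 1B or 2C and Nxf7 (2.45 ± 0.45) without 1A. Plekhf1 (1.69 ± 0.33) and Rad52 (1.57 ± 0.34) lost theirs without each of 3 and 4 collections.

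**Figure D3:**
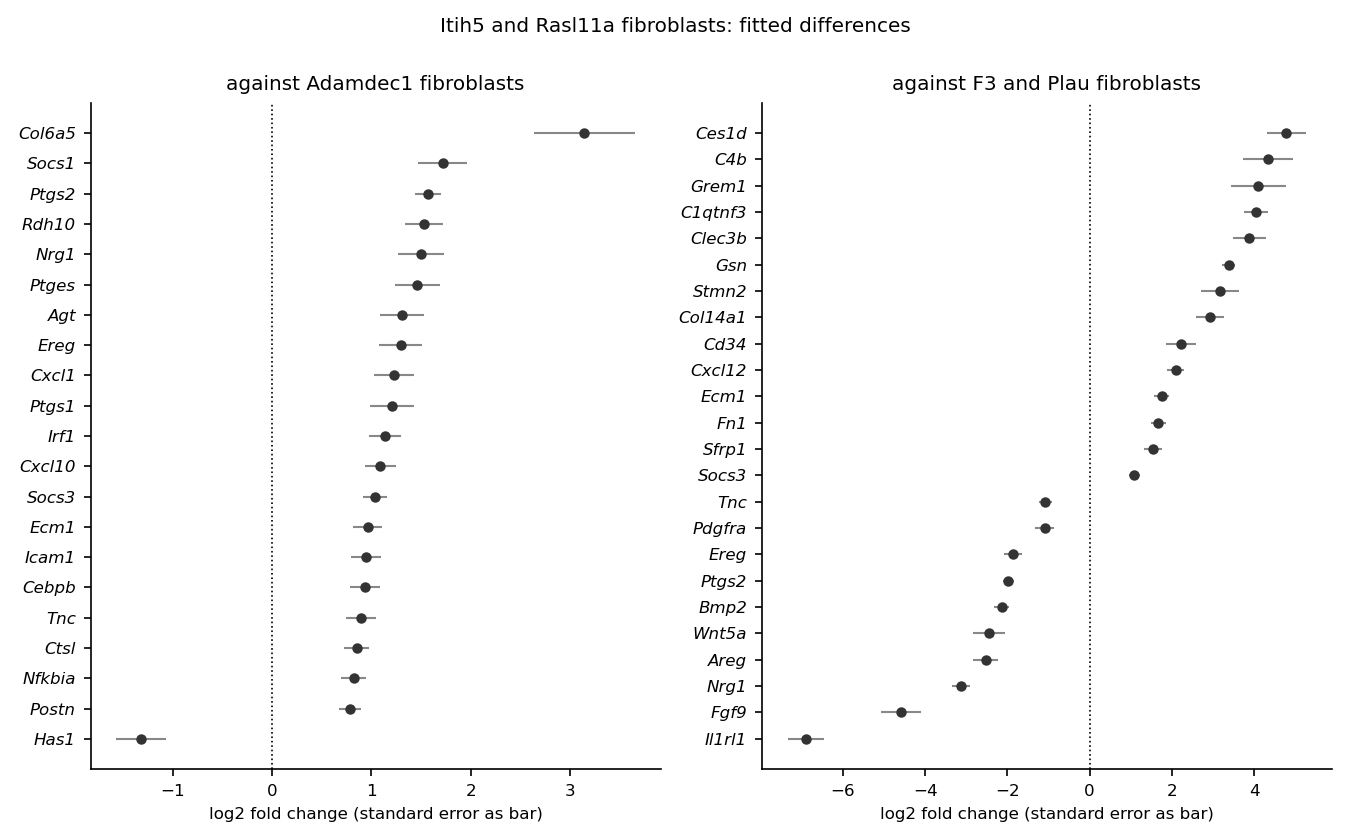
Fitted log2 fold changes of named genes (x axis, with the standard error as a bar) in Itih5 and Rasl11a fibroblasts against Adamdec1 fibroblasts (left) and against F3 and Plau fibroblasts (right). On the left all but Has1 lie above 0, with Ptgs2 at 1.57, and on the right Ptgs2, Ereg, Nrg1, Bmp2 and Tnc lie below 0.

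The genes with the largest negative folds were mostly genes of other cells. Igkc, an antibody light chain, had 217 ± 115 CPM in Itih5 and Rasl11a fibroblasts and 3098 ± 302 CPM in Adamdec1 fibroblasts (-3.74 ± 0.18), and its call ended in the cells without markers of another type (-0.77). Lyve1 and Mmrn1 of lymphatic vessels (-3.73 ± 0.31 and -3.01 ± 0.38), Il1b (-3.03 ± 0.35) and Ms4a7 of macrophages (-2.80 ± 0.47), Iglc2 of plasma cells (-2.98 ± 0.55), Kif21a (-3.28 ± 0.68) and the neuropeptide gene Tac1 (-2.94 ± 0.73) completed the 8. Kif21a lost its call without 1B (adjusted p = 0.20) and Tac1 without 1B, 2B or 2C. Of the marker lists, 3 of 4 tested lymphatic genes were lower and Pdpn, which fibroblasts also make, was higher, and 2 of 2 plasma cell, 2 of 9 macrophage and 1 of 3 dendritic cell markers were lower. None of 8 blood endothelial markers passed in either direction. Of the 48 lower genes, 14 could still be tested in the cells without such markers and 5 kept their call, against 139 and 89 of the 144 higher genes, named or not. The part of other cells in the lower and in the higher calls was not tested further.

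Few members of other lists were called. Among 18 transcription factors, Tbx3, Sox4 and Runx1 were higher and none lower (median 0.26), and each of the 3 lost its call without 1A, without 2B and without 2C. Of genes known from subepithelial fibroblasts, 2 of 8 were higher (Tnc and Wnt4), and of those known from other lamina propria fibroblasts 2 of 10 (Ces1d and Agt), with medians of 0.28 and -0.08. Ces1d lost its call without 1A, 2B or 2C (0.69 to 0.80) and with separate UMIs for gate and sums (0.34, adjusted p = 0.61). Of adventitial genes, 2 of 12 were lower (Has1 and the procollagen enhancer Pcolce2, median -0.43), and Pcolce2 lost its call without 2B or 2C (adjusted p 0.12 and 0.083). Among 13 complement genes 1 was higher and 1 lower. They were C1ra (0.57 ± 0.15) and Cd55, an inhibitor of complement (-1.0 ± 0.25), and both lost the call without any 1 of 1A, 1B, 2B and 2C. Among immediate-early and heat-shock genes, which tissue dissociation is known to raise, 9 of 23 were higher and none lower (median 0.37). Of these Jun (0.37 ± 0.09) and Egr1 (0.46 ± 0.10) lost their calls in the cells without markers of another type and without 1A, 1B, 2B or 2C. The part of these genes in the other differences was not tested. No member passed among 2 Wnt antagonists, 7 BMP antagonists, 2 metabolite receptors and 3 proliferation genes.

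Without collections 1A, 1B, 2A, 2B and 2C in turn, 68, 66, 188, 67 and 38 genes were higher and 26, 29, 103, 30 and 16 lower. With at most 5% mitochondrial UMIs per cell 38 genes were higher and 21 lower, and with the gate read on one part of each cell's UMIs and the sums on the other 54 and 13. The limit on mitochondrial UMIs ended the calls of Socs1 (1.40, adjusted p = 0.13), Icam1 (0.66), Cxcl10 (0.54), Nfkbia (0.60), Ctsl (0.77), Agt (1.31), Ptges (1.29), Ptgs1 (1.09) and Cxcl1 (1.07). Separate UMIs ended those of Nrg1 (0.77, adjusted p = 0.16), Ptges (1.21), Ptgs1 (0.67) and Tnc (0.49). Ptgs2, Socs3, Ier3, Irf1, Ereg and Rdh10 were higher in all 18 alternatives, and Col6a5 and Serpina3g in the 13 and 15 in which they could be tested. Among the 61 named genes that were called, 24 kept their call without each collection in which they could be tested, and 12 kept it in every alternative in which they could be tested.

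**Figure D4:**
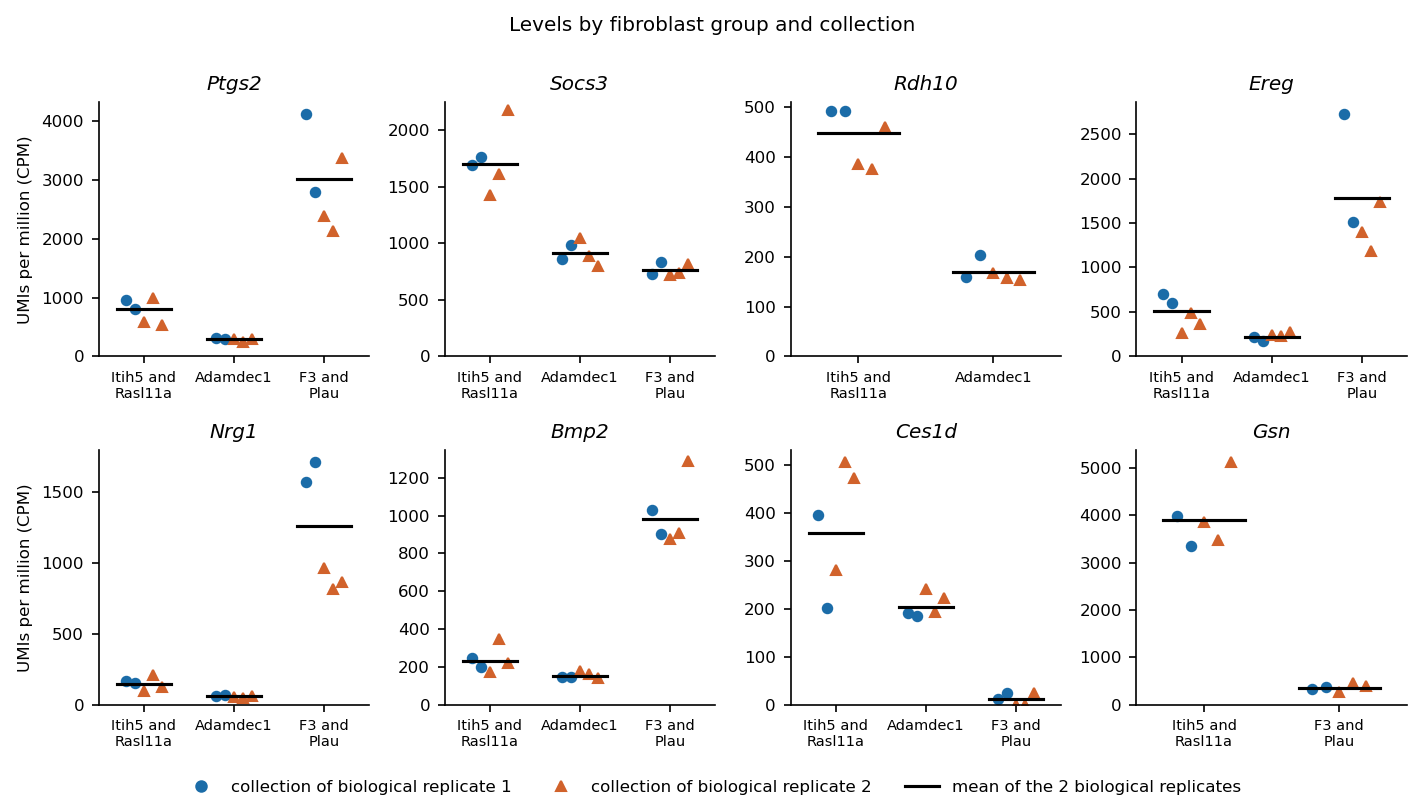
CPM of 8 named genes (y axes) in Itih5 and Rasl11a fibroblasts, Adamdec1 fibroblasts and F3 and Plau fibroblasts (x axes), with a point for each collection, coloured by biological replicate, and a line at the mean of the 2 biological replicates. Ptgs2, Ereg, Nrg1 and Bmp2 lie highest in F3 and Plau fibroblasts, and Socs3 lies highest in Itih5 and Rasl11a fibroblasts. Rdh10 and Gsn were named in 1 comparison only and are drawn for that pair.

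Levels of several named genes differed with the number of set genes found in a cell. Ptgs2 was at 241 ± 3.85, 349 ± 36.3, 646 ± 1.67 and 1279 ± 403 CPM in cells with 0, 1, 2 and 3 or 4 set genes, of which there were 1091, 902, 254 and 56. Median UMIs were 1161 with none, 1408.5 with 1, 1794.5 with 2 and 2483 with 3 set genes, so depth moved with this number. The cells with 1 set gene lie just outside the rule and those with 2 just inside it. Ereg was at 189, 260, 422 and 795 CPM in the same order, Rdh10 at 144, 199, 367 and 721 CPM, and Col6a5 at 4.01, 11, 33.9 and 170 CPM. Grem1 ran the other way at the top, with 182, 187, 138 and 15.5 CPM, as did Cd55 with 257, 367, 170 and 36.2 CPM. The last values of Grem1 and Cd55 rest on 3 and 7 UMIs, all from biological replicate 1. Within the Itih5 and Rasl11a fibroblasts, the 140 cells with Niacr1 had Ptgs2 at 1019 ± 308 CPM, Cxcl1 at 3888 ± 1956 CPM, Ereg at 704 ± 259 CPM and Nrg1 at 222 ± 17.1 CPM. The 159 cells with Rasl11a and Itih5 alone had 602 ± 67.7, 1732 ± 646, 360 ± 134 and 90.1 ± 6.20 CPM of these genes. In the 23 cells with Saa3, Ptgs2 was at 791 ± 258 CPM and Cxcl1 at 2634 ± 713 CPM. These values come from groups of cells cut by the same genes as the rule and carry no test.

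**Figure D5:**
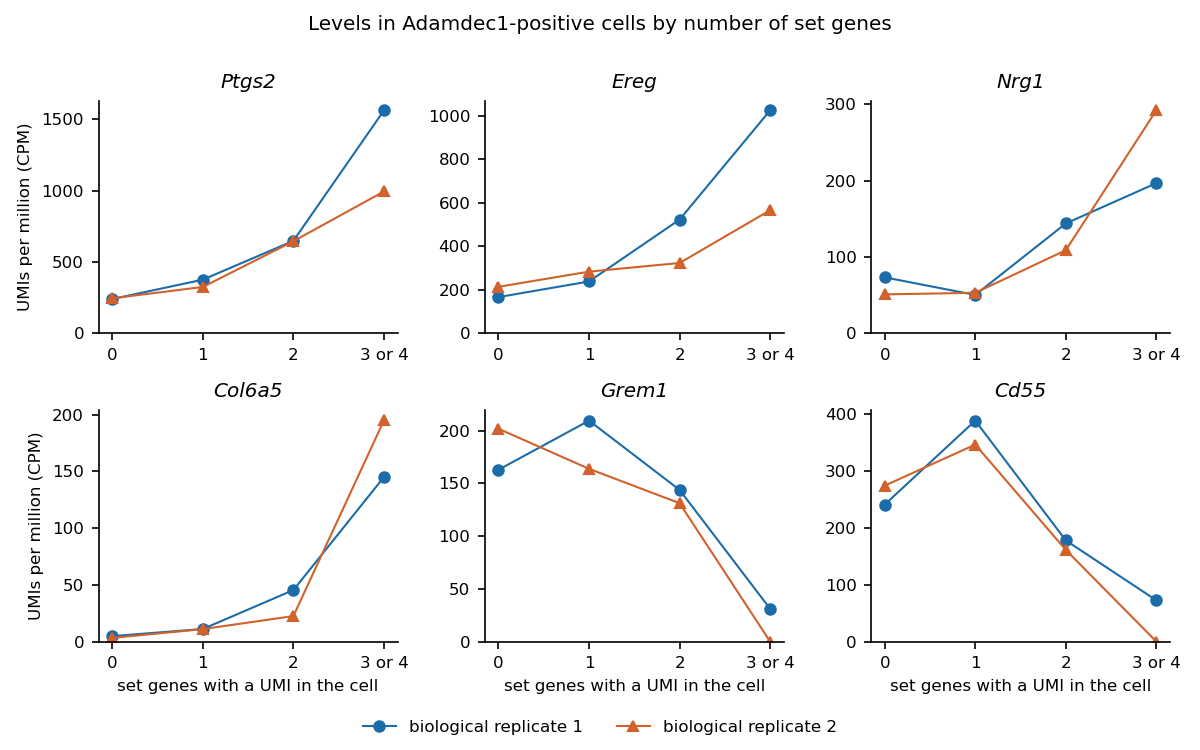
CPM of 6 genes (y axes) in cells that passed the Adamdec1 gate, by the number of set genes of which the cell had a UMI (x axis), with 1 line for each biological replicate. Ptgs2 is at 241 CPM with 0 and 1279 CPM with 3 or 4 set genes on average. Grem1 and Cd55 are lowest with 3 or 4, where they had 3 and 7 UMIs.

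Against the F3 and Plau fibroblasts, in which Pdgfra, Bmp2 and Wnt5a were higher, the Itih5 and Rasl11a fibroblasts had more RNA of C4b, C1qtnf3, Gsn, Fn1 and Cxcl12. They had less of Ptgs2, of the EGF family ligands Nrg1, Areg and Ereg and of the BMP ligands Bmp2 and Bmp5. Here 240 genes (4.21% of 5700) were higher and 313 (5.49%) lower in the same edgeR fit, 9.7% in all. The comparison shares the Itih5 and Rasl11a cells with the one above, so values of both are given side by side and their overlap is not read.

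Higher were 6 of 13 tested complement genes, 7 did not pass and none was lower (median 2.39). C1ra, 1 of the 6, lost its call without any 1 of the 5 collections (0.55 to 0.74). C4b, complement component 4, had 367, 195, 200, 288 and 194 CPM in the collections of Itih5 and Rasl11a fibroblasts and 33.2, 0, 17.5, 0 and 0 CPM in those of F3 and Plau fibroblasts (4.34 ± 0.61, adjusted p = 5.7e-05). C1qtnf3, a secreted protein with a C1q domain, was higher by 4.04 ± 0.29 (580 ± 73.3 against 33.8 ± 7.01 CPM), and Cd55 by 3.88 ± 0.61. Ces1d, a carboxylesterase, had the largest fold among the named higher genes with a UMI in every sum, 358 ± 63.1 against 11.9 ± 7.67 CPM (4.79 ± 0.48). Gelsolin (Gsn), which severs actin filaments, had 3993, 3356, 3855, 3481 and 5132 CPM against 321, 374, 263, 453 and 397 CPM (3.38 ± 0.16, adjusted p = 2.5e-11). Clec3b, which encodes tetranectin, was higher by 3.89 ± 0.39, Fam198b by 3.72 ± 0.57 and Adamts2, a procollagen peptidase, by 3.36 ± 0.43. Lyz2, Dnase1l3 and Cytip were called too, but 61.9, 53.8 and 60.9% of their UMIs in these cells came from 1 cell each. Without 1B, the collection of its cell, Cytip fell to 1.72 (adjusted p = 0.31), against 3.34 with all collections. Dnase1l3 had 3.48 with all collections and 3.44 without 2A, the collection of its cell (adjusted p = 0.060), and its call also ended without 1B, 2B or 2C. Of macrophage markers 2 of 9 (Lyz2 and Tyrobp) and of dendritic cell markers 2 of 3 (Cd74 and H2-Ab1) were higher. Dendritic cell markers (7 genes) summed to 242 to 4270 CPM over the collections in Itih5 and Rasl11a fibroblasts, with Cd209a and Xcr1 at 0, and to 232 to 397 CPM in F3 and Plau fibroblasts, with Cd209a, Xcr1 and Itgax at 0. The macrophage sums are given above, and their part in the other calls was not tested.

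Of 14 genes known from adventitial or submucosal fibroblasts, 12 were tested, 5 were higher and none was lower (median 1.47): Cd34 by 2.22 ± 0.36, Mfap5 by 2.59 ± 0.46, Clec3b, Cd248 and Grem1. In the 56 cells with at least 3 set genes, Mfap5 was at 0.62 (adjusted p = 0.79), Grem1 at 1.74 (adjusted p = 0.59) and Cd34 at 1.29 (adjusted p = 0.23). Grem1 was at 112 ± 2.54 CPM in Itih5 and Rasl11a fibroblasts and 5.77 ± 8.16 CPM in F3 and Plau fibroblasts (4.10 ± 0.67). Matrix genes went both ways, with 12 of 33 higher and 5 lower (median 0.50). Fibronectin (Fn1) was higher by 1.67 ± 0.18, Ecm1 by 1.75 ± 0.18, Postn by 1.05 ± 0.12 and Col14a1 by 2.93 ± 0.34, while Tnc was lower by 1.08 on the log2 scale (SE 0.16) and the basement membrane chain Col4a5 had -3.87 ± 0.40. Cxcl12, a chemokine that retains leukocytes, was higher by 2.09 ± 0.21 (659 ± 55.9 against 147 ± 52.9 CPM), in a list of 15 chemokines with 5 higher and 1 lower (median 0.83). Ccl8, Wnt2b and Vipr2 were at 0 in all F3 and Plau fibroblasts. With 3 UMIs over the group as the limit that a count of 0 allows, Ccl8 was at least 19.2-fold, Wnt2b at least 3.87-fold and Vipr2 at least 2.42-fold higher. Socs3 was higher here as well, by 1.09 ± 0.14 (1697 ± 30.1 against 764 ± 20.8 CPM).

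Ptgs2 was lower by 1.98 on the log2 scale (SE 0.13, adjusted p = 7.1e-09), with the 5 values given above for the Itih5 and Rasl11a fibroblasts and 4125, 2799, 2385, 2126 and 3370 CPM in the F3 and Plau fibroblasts. In the order of the 3 groups it was therefore highest in F3 and Plau fibroblasts, then in Itih5 and Rasl11a fibroblasts, then in Adamdec1 fibroblasts, with no overlap between neighbours. All 3 called EGF family genes of 5 tested were lower: Nrg1 (-3.12 ± 0.22), Areg, which encodes amphiregulin (-2.53 ± 0.31), and Ereg (-1.87 ± 0.22). Nrg1 had 1571, 1713, 965, 819 and 867 CPM in the collections of the F3 and Plau fibroblasts. Of 6 BMP ligands tested, Bmp2 (-2.14 ± 0.18), Bmp5 (-1.51 ± 0.22) and Bmp7 were lower and Bmp4 and Bmp1 higher. Bmp4 (0.57 ± 0.16) lost its call without 1B, 2B or 2C and Bmp1 (1.59 ± 0.44) without 1A, 1B or 2A. Wnt5a, a non-canonical Wnt ligand, was lower by 2.45 on the log2 scale (SE 0.40), Gdnf by 1.86 and Pdgfra, the receptor for platelet-derived growth factor, by 1.10.

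Il1rl1, the receptor of interleukin 33, had 0, 6.49, 7.41, 0 and 12.1 CPM in the collections of the Itih5 and Rasl11a fibroblasts and 807, 688, 474, 122 and 297 CPM in those of the F3 and Plau fibroblasts (-6.90 ± 0.44). Fgf9, a fibroblast growth factor, had -4.59 ± 0.48, Glp2r, the receptor of glucagon-like peptide 2, -4.03 ± 0.84, the chloride channel Ano1 -3.92 ± 0.66, Wisp1 -3.72 ± 0.73 and Stc1, which encodes stanniocalcin, -3.50 ± 0.36. Of 19 NF-kB and interleukin 1 genes, 7 were lower and 2 higher (median -0.74): Nfkbia had -0.80 ± 0.13 and Ier3 -1.10 ± 0.14, while Tnfaip6 had 1.17 ± 0.22. Cxcl1 had 2771 ± 1328 and 3706 ± 105 CPM in Itih5 and Rasl11a and in F3 and Plau fibroblasts (-0.51 ± 0.20, adjusted p = 0.13), and Cxcl10 had 715 ± 224 and 689 ± 69.9 CPM (-0.03 ± 0.17, adjusted p = 0.95). Il6 was at 116 ± 35.5 against 41.0 ± 33.5 CPM (1.48 ± 0.47, adjusted p = 0.0503) and Ccl2 at 340 ± 170 against 185 ± 131 CPM (0.83 ± 0.38, adjusted p = 0.22).

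Other lists went both ways. Zeb2 (1.42 ± 0.21), Tcf21 (1.04 ± 0.25) and Osr1 were higher among 18 transcription factors, while Nkx2-3 (-1.38 ± 0.21), Tbx3 (-1.60 ± 0.27), Foxf1, Sox6 and Zeb1 were lower. Of 10 genes known from lamina propria fibroblasts, 4 were higher, with Stmn2, a tubulin-binding protein, at 344 ± 50.6 against 36.7 ± 2.94 CPM (3.17 ± 0.46). Sparcl1, a matrix protein related to osteonectin, was among the 2 lower ones (-1.66 ± 0.16). Of 7 BMP antagonists, Grem1 and Fstl1 were higher and Fst, Nbl1 and Twsg1 lower, and Sfrp1, a Wnt antagonist, was higher by 1.54 ± 0.22. Both tested neurotrophic factors were lower, Gdnf and Ntf3 (-2.51 ± 0.76), the second losing its call without 1B or 2B. Timp3, an inhibitor of metalloproteinases, was higher by 1.5 (SE 0.17) and Serpina3n by 2.65 ± 0.45. Of 27 interferon genes, Iigp1 (2.94 ± 0.36) and Isg15 were higher and H2-K1 and Ifit2 lower, and all but Iigp1 lost their calls without 1 or more collections. Among immediate-early and heat-shock genes 6 of 23 were higher and 2 lower (median 0.08), Fos by 0.77 ± 0.09.

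In this comparison 158 to 250 genes were higher and 194 to 314 lower when 1 collection was left out. The count of higher genes fell to 158 without 2C, and that of lower genes to 195, 201 and 194 without 1A, 1B and 2C. Of the 85 named and called genes, 63 kept their call without each collection in which they could be tested and 40 in every alternative in which they could be tested. With at least 3 set genes asked of each cell, which left 56 cells, 123 genes were higher and 87 lower. Besides the 3 adventitial genes given above, this ended the calls of Cd55 (2.30), Sfrp1 (0.95), Nfkbia (-0.26), Bmp5 (-0.93), Tcf21 (0.58), Tbx3 (-1.06), Pdgfra (-0.70) and Glp2r (-8.51), among others. With gates and sums on separate UMIs the calls of Cd55 (2.58, adjusted p = 0.14), Fam198b (2.92), Adamts2 (2.03), Grem1 (6.27, adjusted p = 0.23), Cd34 (2.01), Tcf21 (0.26) and Pdgfra (-0.55) ended, all in the same direction.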

How the data were processed

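The members, gene lists and naming rules were chosen with earlier results of these data known. For each of 5 Drop-seq collections the authors deposited raw UMI counts by gene and barcode. The submitters' processing notes name STAR 2.6 and mm10. The counting program and barcode filter are not given in the sources used here. Whether overlapping genes were counted by strand is not given either. Of 7935 barcodes, 6005 had at least 300 genes and at most 10% mitochondrial UMIs. Scrublet in scanpy 1.11.5 marked 23 of them (0.383%), too few to have worked, so none was removed and doublets remain.

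Counts were summed per biological replicate and fibroblast group (Itih5 and Rasl11a, Adamdec1, F3 and Plau, Rbp4 and Aldh1a1), which gave 8 sums. The 22 gate genes were set aside. Genes that passed filterByExpr were fitted in edgeR 4.0.16 (R 4.3.3) after TMM scaling, using its quasi-likelihood test, two-sided. A block for biological replicate was in the model, because groups of 1 replicate came from the same cell suspension. The code of the fit was also run on simulated sums with changes set in the Itih5 and Rasl11a group only. That simulation had no gates and no cells of other types, so it does not bear on those limits. P-values were adjusted over all 5700 genes tested, with a threshold of 0.05. Groups and sums used the same cells. Gate genes and cells cut by set genes were described without a test.

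Named were, per comparison, the 12 highest and 8 lowest called genes by fold (at least 50 CPM where higher, a UMI in every sum and the same direction in both replicates), up to 4 called genes a list with the highest CPM, and 12 fixed genes. Alternatives changed the gates, depth limits, mitochondrial limit, filter, scaling, tool (DESeq2 1.42.0), the block and the collections. The gate of at least 4 of 6 shared fibroblast genes was added after seeing the data. Promoter sequences are from RefSeq (GRCm38.p6), and gene positions from GENCODE M21 on GRCm38, the build also called mm10.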

Additional observations from a re-analysis of the deposited data

Results flagged for a closer look

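Among 49 values of 5 collections each, 4 had 1 collection of the Itih5 and Rasl11a fibroblasts far from the other 4. The limit used flags about 1 in 20 by chance when values are normally distributed. That rate does not strictly apply here, because counts were sparse and a gene needed 50 CPM in at least 1 collection to be flagged. Lyz1, a lysozyme gene of Paneth cells, was at 882.1 CPM in 2A, and 118 of its 144 UMIs in the group were in 1 cell of that collection. Cxcl9 was at 266.9 CPM in 2A, where 1 cell held 36 of its 61 UMIs. Igkc, an antibody light chain, was at 934.2 CPM in 2C, against 66.7 to 162 CPM in the other 4, and 59 of its 144 UMIs were in 1 cell of 2C with markers of another cell type. Adamts2 was at 388.2 CPM in 2C, against 119 to 189 CPM in the other 4, and no cell held more than 4 of its 134 UMIs. The cause of each was not tested.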

How the results depend on the processing

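Against Adamdec1 fibroblasts, the 144 higher and 48 lower genes became 38 and 21 with at most 5% mitochondrial UMIs, 54 and 13 with gates and sums on separate UMIs, and 75 and 7 with DESeq2, which left 1169 genes with an adjusted p. Lower genes were 27 with at least 4 of 6 shared fibroblast genes and 123 without a filter on low counts. Leaving out 1 collection gave 38 to 188 higher and 16 to 103 lower. Against F3 and Plau fibroblasts, the 240 higher and 313 lower genes became 137 and 167 with at most 5% mitochondrial UMIs, 123 and 87 with at least 3 set genes, 115 and 121 with separate UMIs, and 126 and 204 with DESeq2. Lower genes were 206 with at least 1500 UMIs per cell. Leaving out 1 collection gave 158 to 250 higher and 194 to 314 lower. Without the replicate block the counts were 100 and 32 in the first comparison and 206 and 275 in the second. The number of cells was 171 with at most 5% mitochondrial UMIs, 56 with at least 3 set genes and 153 thinned to 1000 UMIs. Their share was 8.08% without cells with 2 markers of another type, 8.04% with at least 500 genes, 1.26% with at least 3 set genes, 8.28 and 9.92% with at least 3 and 4 shared fibroblast genes, and 5.68% thinned, against 8.86% in the same cells before thinning. Of 2915 alternative values of the named genes, 2454 kept direction and, where tested, stayed called or not called as before. The values include each biological replicate alone, which was read by direction only and had no call to keep. A further 426 lost the call, 19 gained one, 14 changed sign without a call and 2 reversed. Those 2 were C1ra (log2 fold change -0.026) and Jun (-0.054) against Adamdec1 fibroblasts, without cells with 2 markers of another type. The cause of these changes was not tested. Depth limits all calls: the 310 cells rest on a median of 1853.5 UMIs each.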
